A study of Mus musculus with 17 samples.

Results

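Expression of 6 genes used as markers of immature or basal medullary epithelium was described in sorted mouse thymic epithelial cells: Trp63, Bcl11a, Itga6, Itgb4, Pdpn and Cxcl14. They were taken by name from the array's gene annotation, where each has 1 probe set with a single symbol, and are 6 of 19752 genes so named. All 6 were among the 13842 genes bright enough to be tested, that is, above the 40th percentile of the array on at least 2 arrays. Cells came from C57BL/6 mice, labelled as of mixed sex, in which Aire-driven Igrp-GFP (the Adig reporter) marks cells that switch on Aire. Every group, knockouts included, carries this reporter and was sorted as negative for CD45 and Ly51 and high in MHC class II. The groups were Aire-knockout (KO) GFP+ cells, wild-type (WT) GFP+ cells and WT GFP- cells of adults aged 5 weeks, with 3 arrays each, and KO GFP+ (3 arrays), WT GFP+ (3) and WT GFP- cells (2) of perinates. The sample labels give the perinates' age as 3 days, the series text as 0 to 3 days. GFP- cells of KO mice were not analysed here, and the labels do not say whether arrays of a group came from separate animals or pools, so the p-values below reflect variation among arrays that may be technical only.

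As background, the medulla of the thymus holds epithelial cells at different stages of maturation, and Aire is expressed in mature cells with much MHC class II. Trp63 encodes p63, the transcription factor of stratified and thymic epithelia that maintains their basal, dividing cells. Itga6 and Itgb4 encode the 2 subunits of integrin α6β4, the laminin receptor of hemidesmosomes that anchors basal cells to the basement membrane. Pdpn encodes podoplanin, a mucin-type membrane glycoprotein, found in the thymus on epithelium near the border of cortex and medulla and also on fibroblasts. Bcl11a encodes a zinc-finger repressor best known for the silencing of fetal globin and for B-cell development, and Cxcl14 a chemokine of epithelia.

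The array median lay between 144.5 and 157.1 in linear intensity and the 40th percentile between 96.2 and 112.1, below which values are close to background. Aire read 4072 to 6000 on the KO GFP+ and 4094 to 6196 on the WT GFP+ arrays, against 270 to 930 on the GFP- arrays. The labels leave unsaid which part of Aire is missing in KO mice, and its probe set therefore gives no check of the knockout. All 10 markers of mature medullary epithelium, among them Aire, Cd80 and Fezf2, lay above the 40th percentile on every array of 5 groups, as did 9 of 10 in perinate GFP- cells, where Cd86 lay below it. Perinate KO arrays 2 and 3 stood apart from the other 15 arrays: the Y-linked Uty read 19.2 and 16.1 there, against 168.9 to 366.2, and Xist, transcribed from the inactive X, read 5203 and 5167, against 2104 to 4509. Results that rest on these arrays are given with and without them. Without them the perinate KO group is 1 array whose spread is taken from the remaining groups, so a call lost there may reflect the smaller group alone, and the log2 difference that is left is given beside it. In RNA of bulk cells, fewer cells of a type and less RNA per cell cannot be told apart.

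Promoter sequences of RefSeq (build GRCm38.p6), from 250 bases before to 50 after the start, were at hand for 3 of the 6 genes, Pdpn, Bcl11a and Cxcl14. Those of Pdpn (chr4:143299515-143299814, minus strand) and Bcl11a (chr11:24080445-24080744, plus strand) are shown because the levels of these genes moved together over the arrays. The Bcl11a window lies within the annotated span of the gene, chr11:24076564-24173558. It thus surrounds a start inside the gene and not its outermost one. Capitals mark the GC box GGGCGG, read on both strands.
Pdpn: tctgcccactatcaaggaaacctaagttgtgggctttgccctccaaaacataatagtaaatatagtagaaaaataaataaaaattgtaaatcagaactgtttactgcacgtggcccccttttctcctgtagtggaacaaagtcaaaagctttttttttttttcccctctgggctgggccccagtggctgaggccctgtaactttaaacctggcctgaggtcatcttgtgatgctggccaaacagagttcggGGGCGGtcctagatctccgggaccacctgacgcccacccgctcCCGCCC
Bcl11a: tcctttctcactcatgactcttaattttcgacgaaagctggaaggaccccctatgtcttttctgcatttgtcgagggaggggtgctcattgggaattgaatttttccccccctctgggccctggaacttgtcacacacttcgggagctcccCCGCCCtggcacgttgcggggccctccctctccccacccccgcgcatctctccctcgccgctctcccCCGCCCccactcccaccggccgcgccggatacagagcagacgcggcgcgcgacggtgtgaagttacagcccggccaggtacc
Both windows hold 2 GC boxes, a motif present in 35.9% of the 27025 promoters of the table. The Bcl11a window has 23 CpG dinucleotides and 63% G or C, that of Pdpn 7 and 48.7%. The AP-1 motif TGANTCA, read on both strands and found in 7.93% of all promoters, is not in these letters of either window.

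Trp63 was brightest in GFP- cells of perinates. It read 657, 574 and 578 in adult KO GFP+ cells and 415, 479 and 509 in adult WT GFP+ cells, against 793, 892 and 1041 in adult WT GFP- cells. It read 891, 752 and 874 in perinate KO GFP+ cells and 481, 604 and 706 in perinate WT GFP+ cells, against 1566 and 1973 in perinate WT GFP- cells. GFP- cells were above WT GFP+ cells of their age on every array, and the KO arrays of either age lay above all WT GFP+ arrays of that age. By mean, perinate GFP- cells came first and adult WT GFP+ cells last, and the neighbours in that order overlapped except at the top and between perinate KO and adult KO cells.

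Bcl11a read 219, 228 and 198 in adult KO GFP+ cells and 197, 247 and 273 in adult WT GFP+ cells, against 323, 369.5 and 412 in adult WT GFP- cells. It read 369, 439 and 463.5 in perinate KO GFP+ cells and 283, 323 and 366 in perinate WT GFP+ cells, against 1298 and 1509 in perinate WT GFP- cells. Both perinate GFP- arrays lay far above the other 15. The perinate WT GFP+ arrays lay above the adult WT GFP+ ones without overlap, and the adult KO and WT GFP+ arrays overlapped.

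Of the integrin subunits, Itgb4 read 1036, 883 and 882 in adult KO GFP+ cells and 796, 868 and 991 in adult WT GFP+ cells, against 619.6, 717 and 1098 in adult WT GFP- cells. It read 1765, 1654 and 1633 in perinate KO GFP+ cells and 776, 1256 and 1342 in perinate WT GFP+ cells, against 1840.4 and 2055 in perinate WT GFP- cells. The 3 adult groups overlapped, whereas among perinates the GFP- arrays were highest, the KO arrays next and the WT GFP+ arrays lowest, with no overlap and with WT GFP+ array 5 far below the other two.

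Its partner Itga6 had group means from 2435 in adult WT GFP- cells to 3794 in adult KO GFP+ cells. It read 3551, 4225 and 3605 in adult KO GFP+ cells and 2773, 2646 and 2999 in adult WT GFP+ cells, against 2233, 2309 and 2761 in adult WT GFP- cells. It read 3397, 3270.5 and 3020.1 in perinate KO GFP+ cells and 3017, 3281 and 2678.5 in perinate WT GFP+ cells, against 3069 and 2945.5 in perinate WT GFP- cells. The adult KO arrays lay above the other 14, and no other neighbours in the order of the groups were separate.

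Pdpn read 433, 349.8 and 276 in adult KO GFP+ cells and 421, 351 and 377.5 in adult WT GFP+ cells, against 632, 429.9 and 692 in adult WT GFP- cells. It read 1064, 664 and 665 in perinate KO GFP+ cells and 614, 1003 and 781 in perinate WT GFP+ cells, against 2728 and 2099 in perinate WT GFP- cells. The perinate GFP- arrays were again far above all others, adult GFP- array 7 lay just above the highest adult WT GFP+ array, and KO and WT cells of one age overlapped.

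Cxcl14 stayed close to background. It lay above the 40th percentile on 11 of 17 arrays and read 68.9 to 191 over all of them, the highest on adult GFP- array 8, whose companions read 112 and 89.6. Group means ran from 90.2 ± 20.9 (SD, n = 3) in adult KO cells to 155 ± 11.8 (SD, n = 2) in perinate GFP- cells, and every group overlapped its neighbour in the order of means. A difference of small size could not be seen at this brightness.

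**Figure D1:**
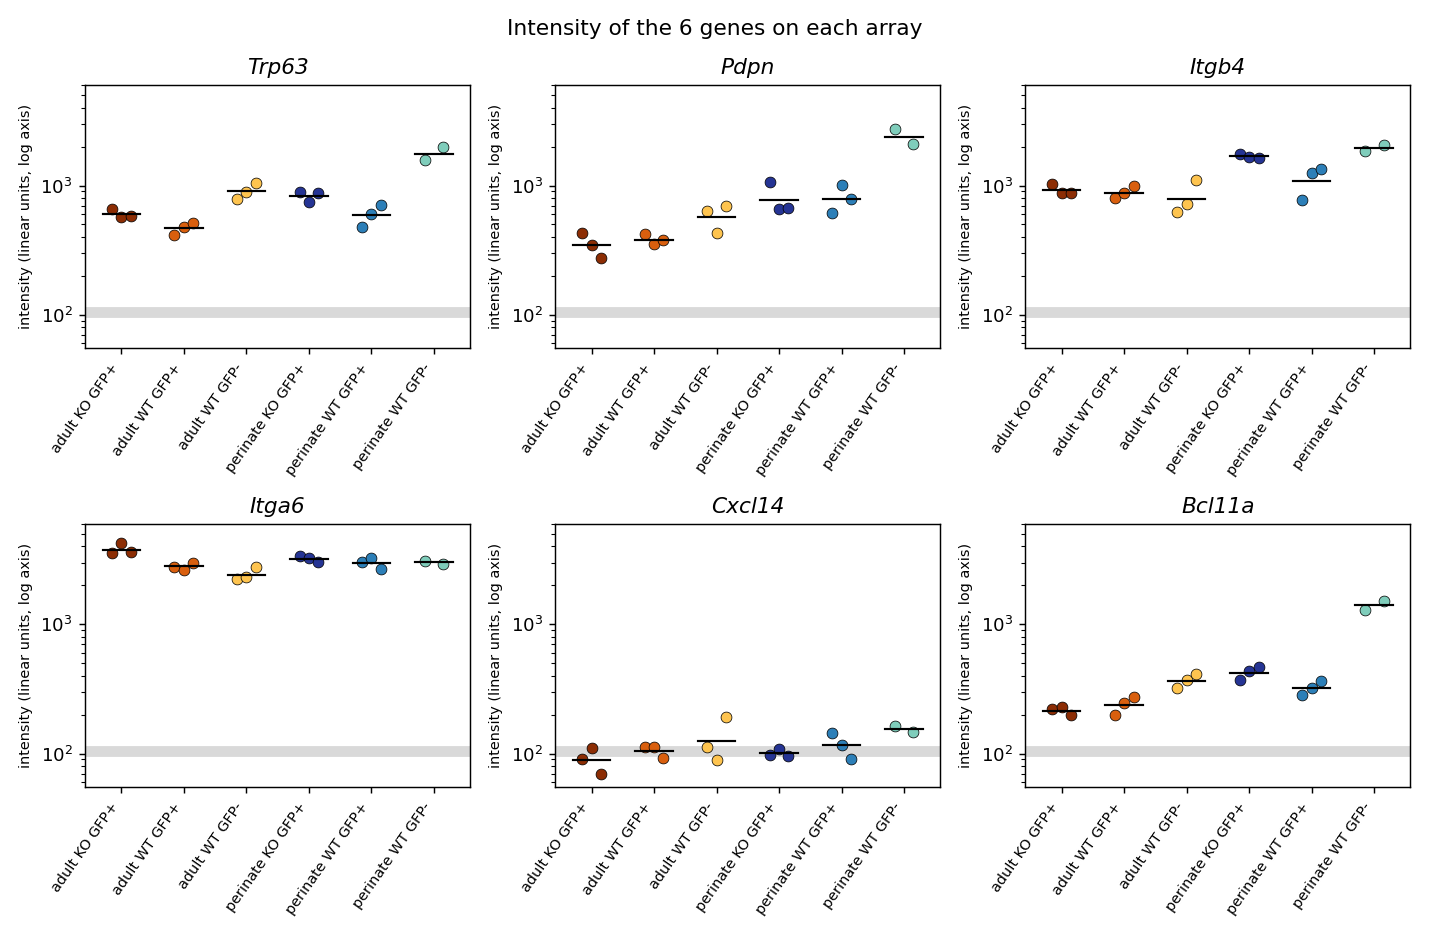
Linear intensity of the 6 genes (y axis, log scale) on each of the 17 arrays, by group (x axis). Points are arrays, black lines are means of the log2 values turned back to linear units, and the grey band spans the arrays' 40th percentiles, 96.2 to 112.1. Perinate WT GFP- cells are highest for Trp63, Pdpn, Itgb4 and Bcl11a, and Cxcl14 lies near the band in every group.

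GFP+ cells were set against GFP- cells to compare cells with high and with low Aire, whose probe set lay above the 40th percentile on every GFP- array too. In WT adults Trp63, Bcl11a and Pdpn were lower in GFP+ cells, that is 3 of the 6 genes, where 20.1% of all genes tested were called lower, 24.7% higher and 44.9% in either direction. Trp63 averaged 468 ± 47.7 in GFP+ and 909 ± 125 in GFP- cells (SD, n = 3 each), a log2 difference of -0.96 ± 0.15 (SE), which is 1.94-fold (limma, adjusted p = 5.54e-05). Bcl11a averaged 239 ± 38.4 in GFP+ and 368 ± 44.3 in GFP- cells, a difference of -0.63 ± 0.14 (limma, adjusted p = 0.00153). Pdpn averaged 383 ± 35.5 in GFP+ and 585 ± 137 in GFP- cells, a difference of -0.58 ± 0.23 (limma, adjusted p = 0.0458). The integrin genes and Cxcl14 did not pass the test, with log2 differences of 0.16 ± 0.20 for Itgb4, 0.21 ± 0.11 for Itga6 and -0.24 ± 0.23 for Cxcl14. The median log2 difference was -0.41 over the 6 genes and 0.02 over all genes tested. The call of Pdpn was lost without adult GFP- array 6 or 8, any of the adult WT GFP+ arrays 6, 7 and 8, adult KO array 2 or perinate WT GFP+ array 7 (adjusted p = 0.0534 to 0.165), and Itga6 passed without adult GFP- array 8 (0.30, adjusted p = 0.047).

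In WT perinates the differences between the sorts were larger for 4 genes, all lower in GFP+ cells (4 of 6, beside 20.5% of all genes tested called lower, 23% higher and 43.5% in either direction). Bcl11a averaged 324 ± 41.3 in GFP+ cells (n = 3) and 1403 ± 149 in GFP- cells (n = 2), a log2 difference of -2.12 ± 0.16, which is 4.34-fold (limma, adjusted p = 1.72e-08). Pdpn averaged 799 ± 195 in GFP+ and 2413 ± 445 in GFP- cells, -1.61 ± 0.25 or 3.05-fold (limma, adjusted p = 6.72e-05). Trp63 averaged 597 ± 112 in GFP+ and 1770 ± 288 in GFP- cells, -1.58 ± 0.16 or 2.98-fold (limma, adjusted p = 7.41e-07). Itgb4 averaged 1124 ± 305 in GFP+ and 1947 ± 151 in GFP- cells, -0.83 ± 0.22 or 1.78-fold (limma, adjusted p = 0.00601), and this call was lost without perinate GFP- array 2 (-0.75, adjusted p = 0.0519). Bcl11a stood low among all genes: 0.48% of the genes tested had a lower log2 difference. Itga6 averaged 2992 ± 302 in GFP+ and 3007 ± 87.3 in GFP- cells, a difference of -0.01 ± 0.12 that did not pass, nor did that of Cxcl14, -0.43 ± 0.26. The median over the 6 genes was -1.20, beside 0.00 over all genes tested.

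The difference between the sorts was then compared between ages, as the adult GFP+ minus GFP- difference minus the perinate one. It was called for 3 of the 6 genes, all with a higher value in adults, that is a smaller deficit of GFP+ cells or none, beside 9.28% of all genes tested called in that direction, 10.7% in the other and 20% in either. Bcl11a differed by 1.49 ± 0.21 on the log2 scale (limma, adjusted p = 0.000118), Pdpn by 1.03 ± 0.34 (adjusted p = 0.0428) and Itgb4 by 0.99 ± 0.30 (adjusted p = 0.0262). Trp63 fell just short, 0.62 ± 0.22 (limma, adjusted p = 0.0557), and passed without adult GFP- array 8, perinate GFP- array 1, adult WT GFP+ array 6 or perinate WT GFP+ array 7 (adjusted p = 0.0223 to 0.0457). The call of Pdpn was lost without adult GFP- array 7, perinate GFP- array 1, any of the adult WT GFP+ arrays 6 to 8, adult KO array 2 or perinate WT GFP+ array 5 or 7 (adjusted p = 0.0531 to 0.167). That of Itgb4 was lost without adult GFP- array 6 or 7, perinate GFP- array 2, adult WT GFP+ array 8 or perinate WT GFP+ array 5 (adjusted p = 0.0564 to 0.089). Itga6 (0.22) and Cxcl14 (0.18) did not pass.

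Adults were next compared with perinates within each sort. In WT GFP- cells, 5 of the 6 genes were lower in adults, beside 22.2% of all genes tested called lower, 24.2% higher and 46.4% in either direction. Pdpn averaged 585 ± 137 in adults (SD, n = 3) and 2413 ± 445 in perinates (n = 2), a log2 difference of -2.06 ± 0.25 or 4.18-fold (limma, adjusted p = 5.16e-06), and 0.43% of the genes tested had a lower one. Bcl11a averaged 368 ± 44.3 in adults and 1403 ± 149 in perinates, -1.93 ± 0.16 or 3.82-fold (adjusted p = 5.99e-08 by limma). Itgb4 (-1.30 ± 0.22, adjusted p = 0.000145) and Trp63 (-0.96 ± 0.16, adjusted p = 0.000138) fell too. Itga6 averaged 2435 ± 285 in adults and 3007 ± 87.3 in perinates, -0.31 ± 0.12 (adjusted p = 0.0493), and its call was lost on leaving out any 1 of 13 arrays, all but adult GFP- array 8, adult KO array 2 and perinate WT GFP+ arrays 6 and 7 (adjusted p = 0.0528 to 0.176). Cxcl14, at -0.32, passed without adult GFP- array 8 (-0.63, adjusted p = 0.0268), its brightest array.

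In WT GFP+ cells the age difference was called for 2 of the 6 genes, both lower in adults, beside 8.52% of all genes tested called lower, 13.6% higher and 22.2% in either direction. Pdpn averaged 383 ± 35.5 in adults and 799 ± 195 in perinates (SD, n = 3 each), a log2 difference of -1.04 ± 0.23 (limma, adjusted p = 0.00406), and 0.59% of the genes tested had a lower one. Bcl11a averaged 239 ± 38.4 in adults and 324 ± 41.3 in perinates, -0.44 ± 0.14 (adjusted p = 0.0309), a call lost without array 6 or 7 of either age (adjusted p = 0.0589 to 0.147). Trp63 (-0.34, adjusted p = 0.104) and Itgb4 (-0.31, adjusted p = 0.277) did not pass, but did without perinate WT GFP+ array 5 (-0.49 and -0.56, adjusted p = 0.0316 and 0.0454). Itga6 (-0.09) and Cxcl14 (-0.14) did not pass.

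In KO GFP+ cells 4 of the 6 genes were lower in adults, beside 13.4% of all genes tested called lower, 12.7% higher and 26% in either direction. Pdpn averaged 353 ± 78.6 in adults and 797.5 ± 231 in perinates (SD, n = 3 each), a log2 difference of -1.16 ± 0.23 (limma, adjusted p = 0.00146). Bcl11a differed by -0.97 ± 0.14 (adjusted p = 0.000123), Itgb4 by -0.85 ± 0.20 (adjusted p = 0.00488) and Trp63 by -0.48 ± 0.15 (adjusted p = 0.0244). Without perinate KO arrays 2 and 3, the calls of Pdpn and Bcl11a held, whereas Itgb4 (-0.92, adjusted p = 0.055) and Trp63 (-0.57, adjusted p = 0.0952) no longer passed. Trp63 also lost its call without adult KO array 2 or 3 or perinate KO array 1 or 3 (adjusted p = 0.0765 to 0.084). Itga6 (0.23) and Cxcl14 (-0.18) did not pass.

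The next comparison set GFP+ cells lacking Aire against WT GFP+ cells of the same age. In adults 1 of the 6 genes was higher in KO cells, beside 9.06% of all genes tested called higher, 10.8% lower and 19.9% in either direction. This was Itga6, which averaged 3794 ± 375 in KO and 2806 ± 179 in WT cells (SD, n = 3 each), a log2 difference of 0.43 ± 0.11 or 1.35-fold (limma, adjusted p = 0.01). Its call was lost without adult KO array 2 (0.35, adjusted p = 0.0674). Trp63 averaged 603 ± 46.8 in KO and 468 ± 47.7 in WT cells, with no overlap, and 0.37 ± 0.15 did not pass (adjusted p = 0.0888). Itgb4 (0.08), Pdpn (-0.14), Bcl11a (-0.14) and Cxcl14 (-0.24) did not pass either.

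In perinates 3 of the 6 genes were higher in KO cells, beside 13.5% of all genes tested called higher, 13% lower and 26.5% in either direction. Itgb4 averaged 1684 ± 71.2 in KO and 1124 ± 305 in WT cells (SD, n = 3 each), a log2 difference of 0.62 ± 0.20 or 1.54-fold (limma, adjusted p = 0.0294). Trp63 averaged 839 ± 75.7 in KO and 597 ± 112 in WT cells, 0.50 ± 0.15 or 1.42-fold (adjusted p = 0.0177 by limma), and Bcl11a 424 ± 48.9 in KO and 324 ± 41.3 in WT cells, 0.39 ± 0.14 or 1.31-fold (adjusted p = 0.0494). All 3 calls were lost without perinate WT GFP+ array 5, the lowest WT array in each of them. With perinate KO array 1 as the only one of its group, none passed either: the difference was larger for Trp63 (0.60, adjusted p = 0.108) and Itgb4 (0.69, adjusted p = 0.189) and smaller for Bcl11a (0.20, adjusted p = 0.601). Leaving out 1 array at a time, Trp63 lost its call without that WT array or perinate KO array 1 or 3 (adjusted p = 0.0555 to 0.103), and Itgb4 without that WT array or any perinate KO array (adjusted p = 0.0639 to 0.167). Bcl11a lost it without 9 of the 17, namely adult GFP- array 7, adult WT GFP+ array 7, any adult KO array, perinate WT GFP+ array 5 or 6 and perinate KO array 2 or 3 (adjusted p = 0.0538 to 0.193). Pdpn (-0.01), Itga6 (0.11) and Cxcl14 (-0.20) did not pass.

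The KO difference in adults minus that in perinates was called by limma for 0 of the 6 genes, beside 1.21% of all genes tested called in either direction, 0.484% higher and 0.722% lower. At an unadjusted p under 0.05 it was 1 of the 6, beside 17.3% of all genes tested: Bcl11a (-0.53 ± 0.20, limma, adjusted p = 0.181), which limma with array weights called (-0.62, adjusted p = 0.0436). Itgb4 differed by -0.54 ± 0.28 (adjusted p = 0.335) and Itga6 by 0.32 ± 0.16 (adjusted p = 0.307), so that the calls of one age are not shown to be absent in the other. The WT GFP+ arrays enter the comparisons by sort, by age and by genotype, whose values are therefore not independent of each other. Likewise, the 2 perinate WT GFP- arrays enter the perinate comparison by sort, the sort difference between ages and the age comparison of GFP- cells. The counts of called genes in these 3 are therefore not separate results.

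**Figure D2:**
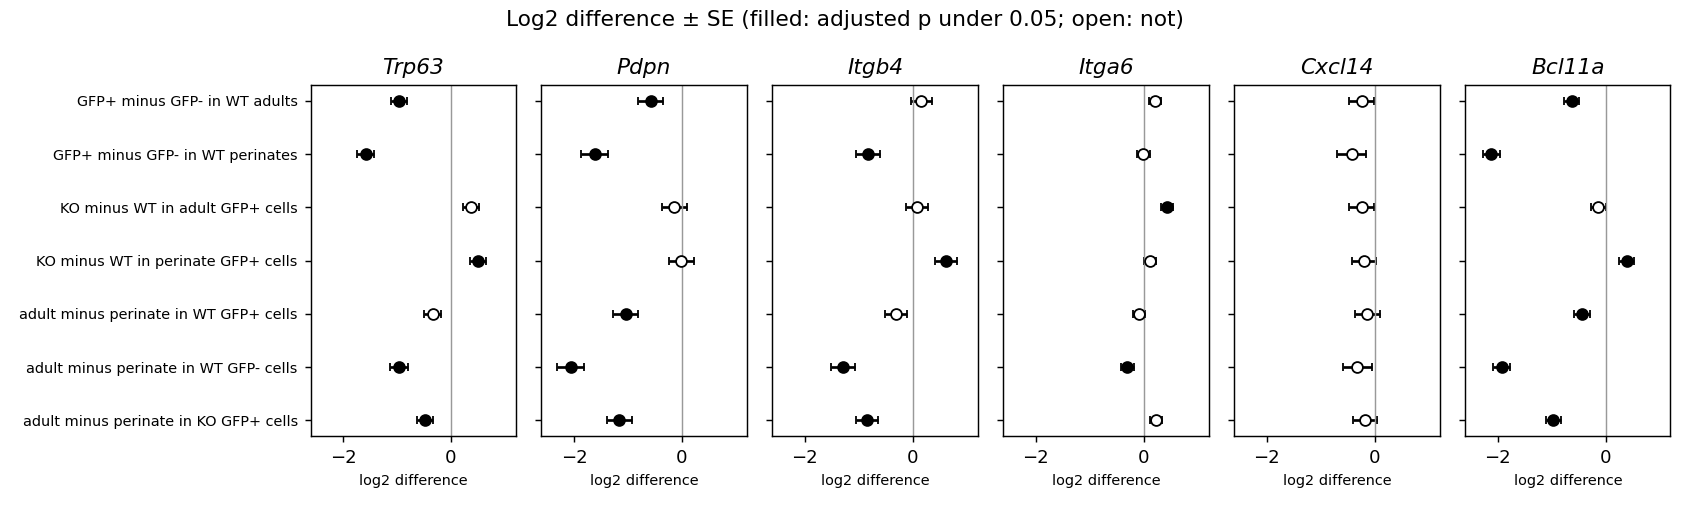
Log2 differences (x axis) of the 6 genes in the 7 comparisons of 2 groups (y axis), with bars of 1 standard error from limma. Filled points have an adjusted p under 0.05. Bcl11a, Pdpn, Trp63 and Cxcl14 lie below 0 by sort at both ages, and every gene but Itga6 lies below 0 in all 3 age comparisons. Pdpn and Bcl11a are filled in all 3 of these, and Cxcl14 is open throughout. The Itga6 points lie between -0.31 and 0.43.

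Counts in the 4 lists below stand beside the following shares of all genes tested. By sort, 20.1% were lower and 24.7% higher in adult GFP+ cells, and 20.5% and 23% in perinate GFP+ cells. By age, 22.2% were lower and 24.2% higher in adult GFP- cells, 8.52% and 13.6% in adult WT GFP+ cells, and 13.4% and 12.7% in adult KO cells. By genotype, 10.8% were lower and 9.06% higher in adult KO cells, and 13% and 13.5% in perinate KO cells.

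Components of the hemidesmosome and its laminin ligand, the surroundings of integrin α6β4, were lower in GFP+ cells in most cases. Of 9 tested genes (of 10 listed), 5 fell and 1 rose in adult GFP+ cells, and 6 fell and 0 rose in perinate GFP+ cells (medians -0.37 and -0.52, beside 0.02 and 0.00 over all genes). Lama3, a chain of the laminin that α6β4 binds, averaged 276 ± 15.8 in adult GFP+ and 476 ± 123 in adult GFP- cells (-0.76 ± 0.17, adjusted p = 0.00175), and 276.5 ± 37.9 in perinate GFP+ and 819 ± 229 in perinate GFP- cells (-1.55 ± 0.19, adjusted p = 5.19e-06). Lamb3, another chain of it, differed by -0.84 ± 0.21 and -1.28 ± 0.23 at these ages (adjusted p = 0.0037 and 0.000281), and the tetraspanin Cd151, a partner of laminin-binding integrins, by -0.57 ± 0.17 and -0.75 ± 0.18 (adjusted p = 0.0101 and 0.00348). Itga3, the α subunit of another laminin receptor, was the one that rose in adult GFP+ cells (0.45 ± 0.11, adjusted p = 0.0024). With age, 5 of 9 fell in adult GFP- cells, 1 rose in adult WT GFP+ cells and 1 fell in adult KO GFP+ cells. In KO cells 0 were called in adults and 1, Itga3, rose in perinates (0.53 ± 0.11, adjusted p = 0.00151). With 1 perinate KO array left, Itga3 stood at 0.35 ± 0.15 (adjusted p = 0.177). The difference between the sorts differed between ages for 2, Itga3 (0.90 ± 0.16) and Lama3 (0.79 ± 0.26), and the KO difference for 0.

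Basal keratins and genes that p63 regulates or pairs with were, like Trp63, more often lower than higher in GFP+ cells. Of 13 tested (of 15 listed), 8 fell and 1 rose in adult GFP+ cells, and 8 fell and 2 rose in perinate GFP+ cells (medians -0.77 and -0.68). Fgfr2, the receptor for keratinocyte growth factor, averaged 159 ± 24.5 in adult GFP+ and 412.5 ± 128 in adult GFP- cells (-1.34 ± 0.22, adjusted p = 0.000103), and 438 ± 106 in perinate GFP+ and 1935 ± 268 in perinate GFP- cells (-2.16 ± 0.24, adjusted p = 2.01e-06). Jag2, a Notch ligand, differed by -2.74 ± 0.25 in perinates (adjusted p = 1.51e-07), where Krt14, a basal keratin, differed by -0.95 ± 0.27 (adjusted p = 0.00936). Its partner Krt5 differed by -1.49 ± 0.31 in adults (adjusted p = 0.000899), as did Perp, a desmosomal p63 target, by -1.51 ± 0.20 (adjusted p = 1.69e-05). In perinates Krt5 was not called, with 3251 ± 1572 in GFP+ and 5358 ± 81.4 in GFP- cells. Fermt1, a kindlin that activates integrins, went the other way in adult GFP+ cells, with 2201 ± 229 in GFP+ and 1090 ± 67.6 in GFP- cells (1.01 ± 0.12, adjusted p = 4.87e-06).

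With age, 4 of these 13 fell and 1 rose in adult GFP- cells, where 22.2% of all genes fell and 24.2% rose, 3 fell and 0 rose in adult WT GFP+ cells, and 7 fell and 1 rose in adult KO GFP+ cells. Fgfr2 was lower in adults in all 3 age comparisons (-2.27 in GFP-, -1.45 in WT GFP+ and -1.64 in KO GFP+ cells), and Zfp750, a p63 target of terminal differentiation, rose in adult GFP- cells (1.37 ± 0.21, adjusted p = 4.36e-05). In KO cells 1 rose and 3 fell in adults, and 3 rose and 2 fell in perinates. Jag2 rose in perinate KO cells, with 348 ± 60.4 in KO and 185 ± 13.9 in WT cells (0.90 ± 0.22, adjusted p = 0.00655), while Dlx3, a homeobox target of p63, fell in KO cells of both ages (-0.44 ± 0.11 and -0.73 ± 0.11, adjusted p = 0.00741 and 9.81e-05). With 1 perinate KO array left, 0 of the 13 rose and 2 fell in perinate KO cells, where Jag2 stood at 0.61 ± 0.31 (adjusted p = 0.272) and Dlx3 at -0.93 ± 0.14 (adjusted p = 0.000665), and 0 rose and 4 fell with age in KO cells. The sort difference differed between ages for 1 gene upward and 2 downward, the KO difference for 0.

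Further markers of immature or MHC class II-low medullary epithelium did not all share a direction. Of 8 tested (of 12 listed), 5 fell and 2 rose in adult GFP+ cells and 4 fell and 2 rose in perinate GFP+ cells (medians -0.70 and -0.17). Lifr, the receptor of leukaemia inhibitory factor, averaged 268 ± 37.9 in adult GFP+ and 1203 ± 422 in adult GFP- cells (-2.12 ± 0.23, adjusted p = 1.92e-06), and 944 ± 169 in perinate GFP+ and 3612 ± 444 in perinate GFP- cells (-1.95 ± 0.26, adjusted p = 1.22e-05). Plet1, a surface protein of thymic epithelial progenitors, differed by -1.66 ± 0.26 and -1.21 ± 0.29 (adjusted p = 5.79e-05 and 0.00235). The chemokine scavenger Ackr4 differed by -2.67 ± 0.21 in perinates (adjusted p = 4.17e-08), where its GFP+ mean of 82.4 lay below the 40th percentile, so that background limits the size of the difference. Tnfrsf11a, which encodes RANK and also stands in the list of mature markers, as does Epcam, rose in perinate GFP+ cells (1.54 ± 0.15, adjusted p = 4.4e-07).

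By age, 3 of these 8 rose and 2 fell in adult GFP- cells, among them Cldn3, a claudin, up by 1.40 ± 0.18, and Ackr4, which fell by 1.96. Only Lifr was called in GFP+ cells of either genotype, lower in adults (-1.81 ± 0.23 in WT and -1.90 ± 0.23 in KO, adjusted p = 6.47e-05 and 2.88e-05). Plet1 was lower in KO cells: it averaged 225 ± 24.9 in adult KO and 659.7 ± 38.9 in adult WT GFP+ cells (-1.56 ± 0.26, adjusted p = 0.000248), and 231 ± 87.5 in perinate KO and 674 ± 132 in perinate WT GFP+ cells (-1.59 ± 0.26, adjusted p = 0.000215). In perinates Tnfrsf11a rose in KO cells (0.41 ± 0.14, adjusted p = 0.0362). With 1 perinate KO array left, Plet1 stood at -1.02 ± 0.31 (adjusted p = 0.0558) and Tnfrsf11a at 0.21 ± 0.19 (adjusted p = 0.557). Cldn3 and Tnfrsf11a differed between ages in their sort difference (-1.08 ± 0.24 and -1.05 ± 0.20), and so did Ackr4, with no size given since its GFP+ means of 62.7 in adults and 82.4 in perinates lay below the 40th percentile.

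Among known partners of podoplanin, Cxcl14 and Bcl11a, 12 of 13 listed were tested. In adult GFP+ cells 1 rose and 3 fell, and in perinate GFP+ cells 3 rose and 5 fell (medians 0.05 and -0.24). Msn encodes moesin, which ties podoplanin to the actin cortex. It averaged 2830 ± 166 in adult GFP+ and 1408 ± 156 in adult GFP- cells (1.01 ± 0.11, adjusted p = 1.27e-06), and 2599 ± 148 in perinate GFP+ and 807 ± 109 in perinate GFP- cells (1.69 ± 0.12, adjusted p = 1.06e-08), opposite to Pdpn in both cases. Cxcl12, the ligand of Cxcr4 and also 1 of the cortical markers below, averaged 90.2 ± 8.47 in perinate GFP+ cells, below the 40th percentile, and 747 ± 60.8 in perinate GFP- cells (-3.05 ± 0.13, adjusted p = 6.75e-11), a size that background limits as well. Arid1a, a subunit of the BAF chromatin remodelling complex to which Bcl11a belongs, fell in adult GFP+ cells (-0.65 ± 0.12, adjusted p = 0.000236). By age, 3 rose and 6 fell in adult GFP- cells, 1 rose and 2 fell in adult WT GFP+ cells, and 2 rose and 2 fell in adult KO cells. In KO cells 1 rose in adults and 2 in perinates, with 0 lower; Msn was higher in KO cells of both ages (0.68 ± 0.11 and 0.44 ± 0.11, adjusted p = 0.00015 and 0.00588). With 1 perinate KO array left, Msn stood at 0.31 ± 0.16 (adjusted p = 0.258) and Bcl11b, a relative of Bcl11a and the other gene called, at 0.08 ± 0.14, beside 0.33 with all arrays. The sort difference of Msn differed between ages (-0.68 ± 0.16, adjusted p = 0.00624). That of Cxcl12 was called too, with no size given since its GFP+ means of 82.2 in adults and 90.2 in perinates lay below the 40th percentile. The KO difference differed between ages for 0 of the 12.

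**Figure D3:**
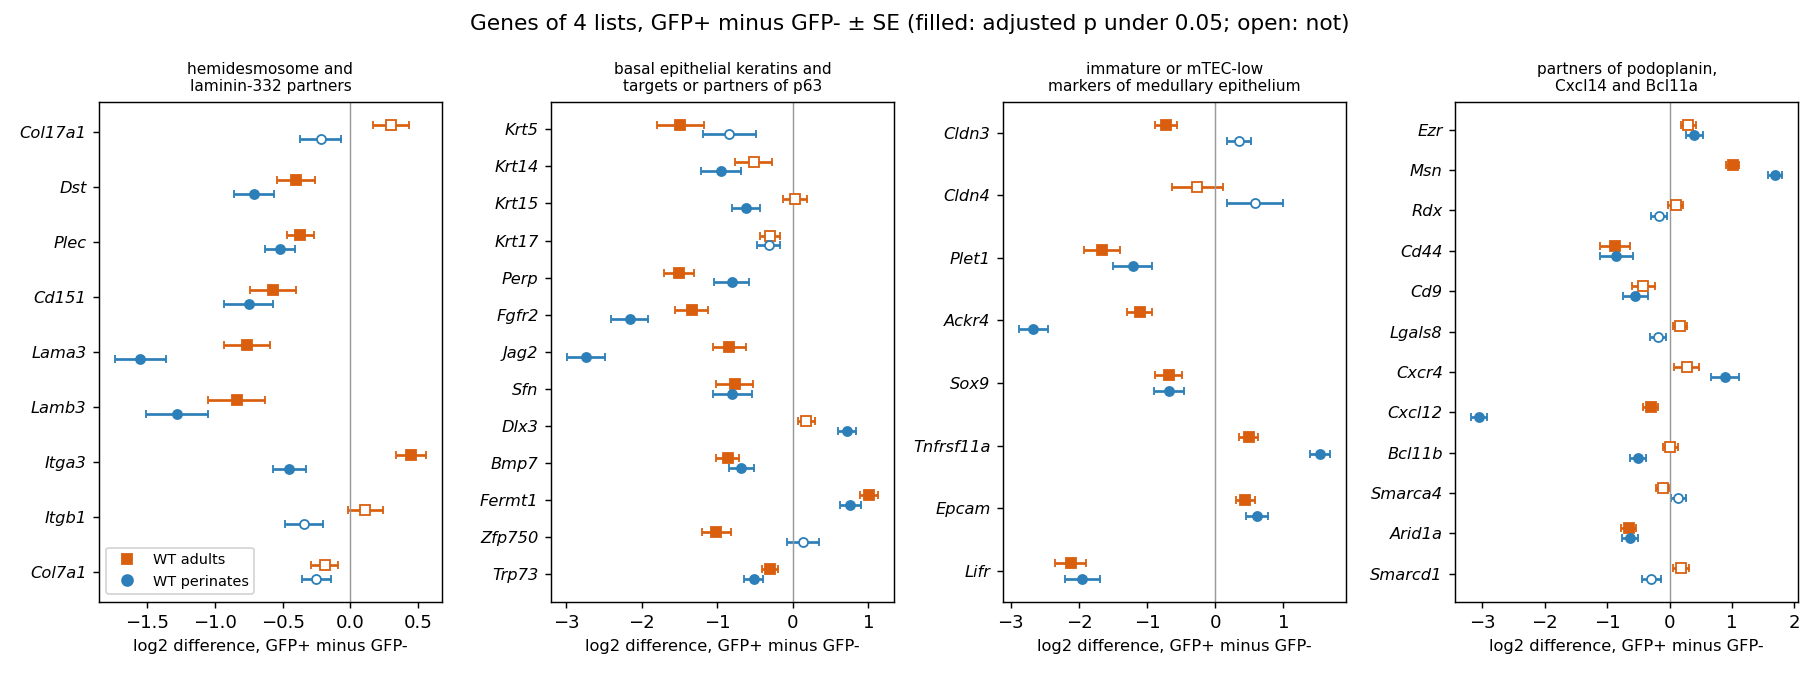
Log2 difference of GFP+ minus GFP- cells (x axis) for each tested gene of the 4 lists (y axis), in WT adults (squares) and WT perinates (circles), with bars of 1 standard error. Filled symbols have an adjusted p under 0.05. Most filled symbols in the first and the second panel lie below 0, with Itga3 (adults), Fermt1 and Dlx3 (perinates) on the other side, and the perinate values of Msn and Cxcl12 lie at opposite ends of the fourth panel.

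Markers of other cell types moved with some of these groups. Perinate GFP- cells, which had the highest mean for 5 of the 6 genes (Cxcl14 with overlap), carried more of the cortical epithelial markers: their summed intensity was 15215 to 15264 in perinate GFP- cells, against 7158 to 11630 in perinate WT GFP+ cells, and 6921 to 8446 in adult GFP- cells. All 7 cortical markers lay above the 40th percentile in perinate GFP- cells, Psmb11 among them, and 6 of 7 were lower and 1 higher in perinate GFP+ than in GFP- cells. The largest part of the perinate GFP- sum was Ctsl, with means of 8561 there and 3765 in perinate WT GFP+ cells. The 1 higher was Ccl25, with means of 1428 in perinate GFP- and 4526 in perinate WT GFP+ cells. Between the GFP- sorts, 5 were lower and 1 higher in adults. In adult WT GFP+ cells they summed to 9486 to 10174, above the adult GFP- cells, with 2 higher and 1 lower. Mature medullary markers summed to 44964 to 47475 in perinate WT GFP+ cells, against 27474 to 27512 in perinate GFP- cells, with 9 of 10 higher in GFP+ cells, and to 49254 to 51545 in adult WT GFP+ cells, against 38074 to 38346 in adult GFP- cells. The part of these in the results on the 6 genes was not tested.

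Adult GFP- cells differed in another list. Markers of keratinized or post-Aire epithelium summed to 2107 to 2574 in adult WT GFP+ cells, against 8055 to 11851 in adult GFP- cells (0 of 8 higher and 7 lower in GFP+), and to 2513 to 3456 in perinate GFP- cells. In KO cells they summed to 766 to 1321 in adults and 633 to 924 in perinates, with 4 and 7 of 8 lower than in WT. With 1 perinate KO array left, Krt77 and Krt1 stood at -2.37 and -1.81 in perinates, beside -2.49 and -1.76 with all arrays. Spink5 and Krtdap stood at -0.41 and -0.35, beside -1.27 and -1.26. The part of these in the results was likewise not tested.

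Fibroblast markers are of interest for Pdpn, which fibroblasts also express. They summed to 4263 to 5264 in perinate WT GFP+ cells, against 3791 to 3801 in perinate GFP- cells, and most of the sum was Dcn, with means of 3265 in perinate WT GFP+ and 2883 in perinate GFP- cells. Between ages they summed to 2738 to 3099 in adult and 4263 to 5264 in perinate WT GFP+ cells, and to 2053 to 2418 in adult and 3791 to 3801 in perinate GFP- cells, the direction in which Pdpn moved. Of the 7 markers, 4 were lower and 0 higher in adult WT GFP+ cells, and 2 lower and 1 higher, Pdgfrb, in adult GFP- cells. By sort, 3 were higher and 0 lower in WT GFP+ cells at both ages, the direction opposite to Pdpn. In adults they summed to 4349 to 4682 in KO GFP+ cells, against 2738 to 3099 in WT GFP+ cells, with 2 of 7 higher and 2 lower, and in perinates to 5074 to 5401 in KO and 4263 to 5264 in WT GFP+ cells, with 2 higher and 3 lower. Their part in the results was not tested. Pdgfra was at or below the 40th percentile in each group on at least 1 array, and 5 or 6 of the 7 markers, collagens included, lay above it on all arrays of a group. For Bcl11a, which B cells and plasmacytoid dendritic cells express, the markers of these cells summed to 3162 to 4112 in perinate WT GFP+ cells, against 1719 to 1916 in perinate GFP- cells. Most of both sums was Spib, with means of 2624 in perinate WT GFP+ and 1146 in perinate GFP- cells. In adults the markers of these cells summed to 3581 to 3984 in WT GFP+ and 3323 to 4217 in GFP- cells. Of 3 tested, 2 were higher and 0 lower in adult than in perinate GFP- cells, the direction opposite to Bcl11a. Of 6 markers, Cd79b, Spib and Il3ra lay above the 40th percentile on every array and Siglech, Cd79a and Ms4a1 below it on every array, and their part in the results was not tested.

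Of the remaining lists, endothelial markers summed to 703 to 1494 over all arrays, with 2 of 5 tested lower in adult GFP+ than GFP- cells, and thymocyte markers summed to 666 to 1429, with Ptcra and Dntt too dim to be tested. Markers of dendritic cells and macrophages summed to 3967 to 4607 in perinate WT GFP+ cells, against 749 to 984 in perinate GFP- cells, and to 6404 to 6429 in adult WT GFP+ cells, against 4883 to 5855 in adult GFP- cells. Most of the GFP+ sums was Lyz2, with means of 3314 in perinate WT GFP+ and 198 in perinate GFP- cells. In adults Lyz2 averaged 5193 and 4367. Of 6 markers tested, 4 were higher and 0 lower in perinate GFP+ cells, and 3 higher and 0 lower in adult GFP+ cells. In KO GFP+ cells they summed to 4998 to 5161 in adults and 3512 to 3810 in perinates, with 4 and 3 of 6 tested lower than in WT GFP+ cells and 0 higher. Cd68 and Lyz2 alone lay above the 40th percentile on all arrays of all 6 groups. The part of these in the results was not tested.

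**Figure D4:**
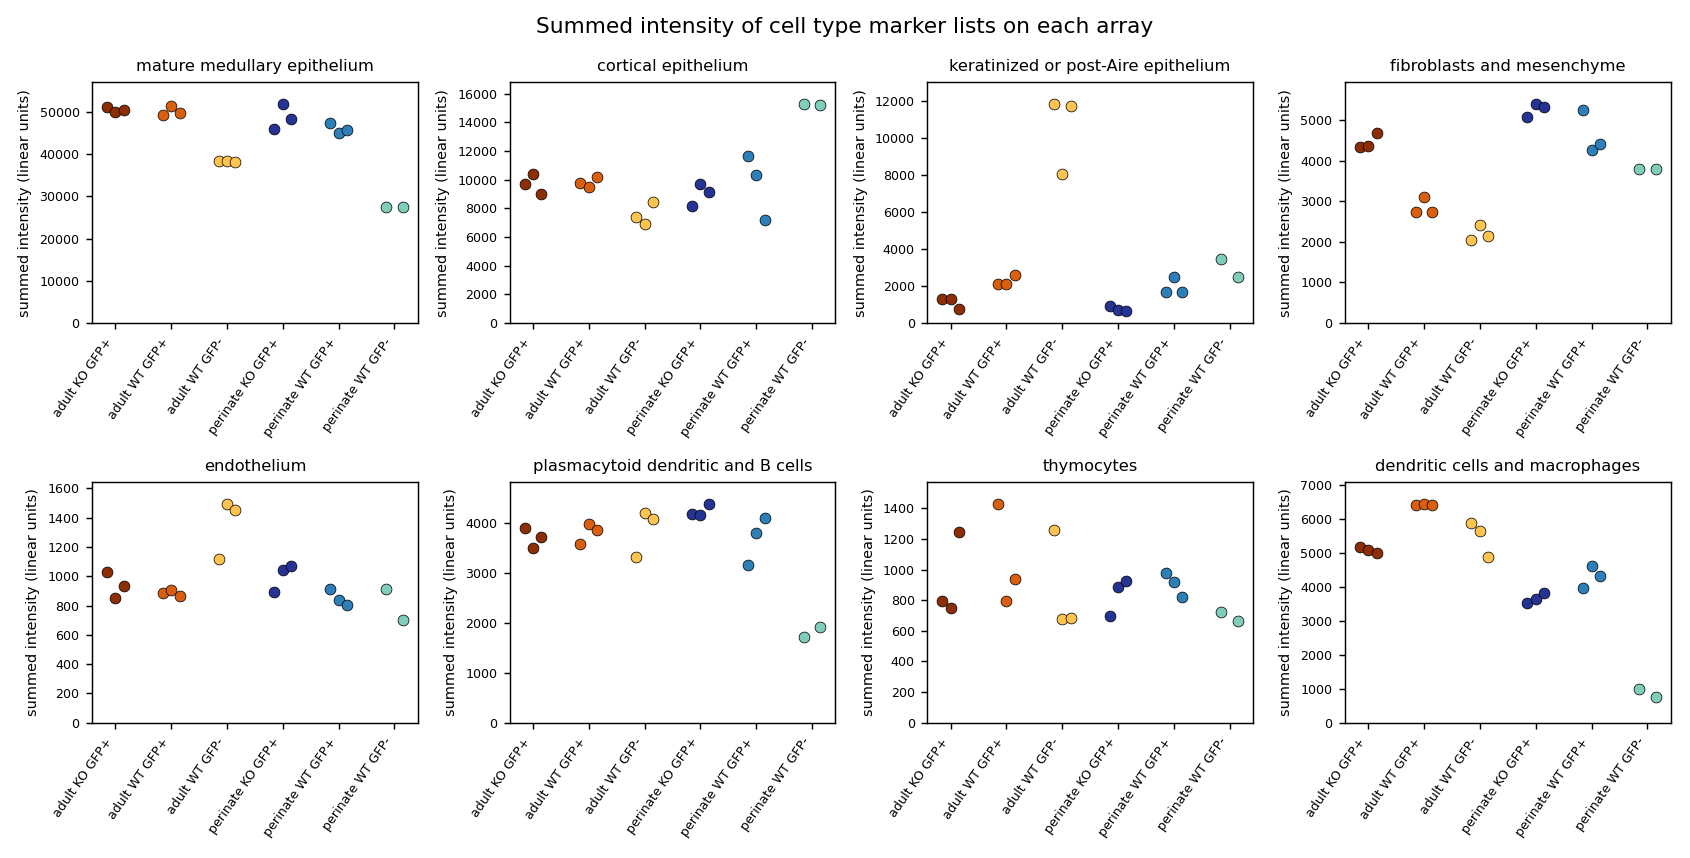
Summed linear intensity (y axis, from 0) of 8 lists of cell type markers on each array (points), by group (x axis). Perinate WT GFP- arrays are highest for cortical markers (15215 and 15264) and lowest for mature medullary and for dendritic cell and macrophage markers, and adult WT GFP- arrays are highest for keratinized epithelium (8055 to 11851).

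Over the 17 arrays, which share their groups, Trp63, Bcl11a and Pdpn followed each other in log2 intensity. Pearson's r was 0.92 for Trp63 and Bcl11a, 0.90 for Pdpn and Bcl11a and 0.80 for Trp63 and Pdpn, given as descriptions. Itgb4 reached 0.74 with Pdpn, 0.72 with Bcl11a and 0.65 with Trp63, but 0.31 with Itga6, which forms the same receptor, and Itga6 lay between -0.16 and 0.31 with all others. Within groups, taking each array's deviation from its group mean, Trp63 and Itgb4 moved together (r = 0.87), as did Trp63 and Bcl11a (0.72) and Itgb4 and Bcl11a (0.67), whereas Pdpn and Bcl11a did not (-0.14). Perinate WT GFP+ array 5 lay below its group in Itgb4 (-0.50), Pdpn (-0.35), Trp63 (-0.29) and Bcl11a (-0.19), but above it in Cxcl14 (0.33) and near it in Itga6 (0.02). Adult GFP- array 8 lay above its group in all 6 genes, with 0.62 for Cxcl14, 0.48 for Itgb4, 0.27 for Pdpn, 0.21 for Trp63, 0.19 for Itga6 and 0.17 for Bcl11a.

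**Figure D5:**
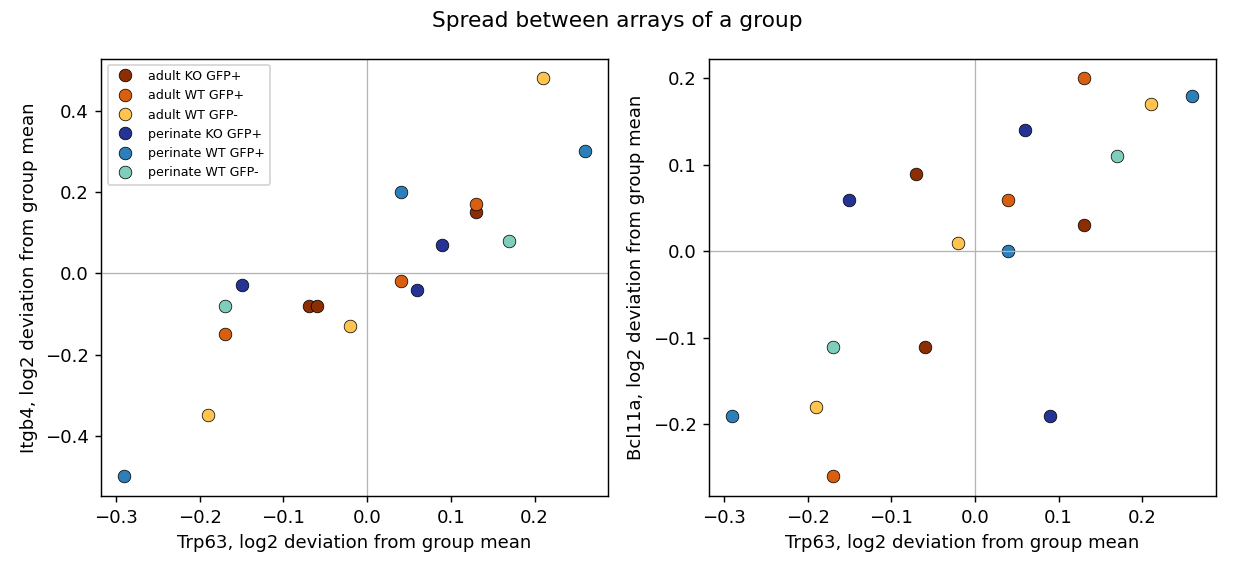
Log2 deviation of each array from its group mean, for Trp63 (x axis) against Itgb4 (left) and Bcl11a (right), with colours for the 6 groups. Points of one group differ along the diagonal for Itgb4, with perinate WT GFP+ array 5 at -0.29 and -0.50 and adult WT GFP- array 8 at 0.21 and 0.48.

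The 3 tested genes with the highest r over the 17 arrays were named for each gene. For Bcl11a they were Tcf12 (0.981), Ptk7 (0.978) and Slc20a2 (0.978), and for Trp63 Mtss2 (0.970), Arl2 (0.968) and Meis1 (0.967). Pdpn was closest to Rnf217 (0.971), Serpina3n (0.969) and Nfib (0.966). Nfib, a transcription factor, averaged 293 in adult WT GFP+ and 485 in adult GFP- cells, and 684 in perinate WT GFP+ and 2940 in perinate GFP- cells, the order seen for Pdpn by sort and age. Itgb4 was closest to Carm1 (0.951), Ctc1 (0.948) and Pcdh18 (0.948), and Itga6 to Ccdc127 (0.947), Gpalpp1 (0.943) and Cops4 (0.941). The likeness was weaker for the dim Cxcl14, with AW551984 (0.812), Nrbp1 (0.797) and Ankrd42 (0.786).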

How the data were processed

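The 17 arrays were grouped and numbered from the sample labels. Intensities are on a linear scale, as deposited; per the submitters' processing notes, the authors used Affymetrix Power Tools and RMA. Their versions, and which arrays were normalized jointly, are not given by the sources used here. Of 24922 probe sets, 21425 had 1 symbol, 1399 several and 2098 none (unnamed here), and 0 columns went unused. For the 921 genes with several probe sets, the one of highest mean served. Values were put on the log2 scale, and 1 model of 6 group means was fitted over all 17 arrays to 13842 genes (limma 3.58.1, R 4.3.3: lmFit, contrasts.fit, eBayes), with 11 residual and 5.52 prior degrees of freedom. All p-values are two-sided and adjusted by Benjamini-Hochberg over the 13842 genes within each of 9 comparisons, and called under 0.05. Levels with an SD are means of linear intensity; fold changes come from log2 means. Precision is limited by how many arrays there are, with a typical (median) standard error of 0.13 for log2 differences between groups of 3.

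The 6 genes, the 4 gene lists and the 8 marker lists were chosen with earlier results of these data known. Text names all 6 genes, at most 4 called genes of a list per comparison (the largest differences), and 3 genes of most like pattern. Lists are described by counts. On simulated data with perinate GFP+ against GFP- cells, over 13842 genes, the steps recovered 35.8% of genes changed 1.5-fold and 89.6% of those changed 2-fold, with 5 false calls. Few genes were changed there, with independent noise, whereas 43.5% of genes were called in this comparison of the data. The adjusted threshold was therefore stricter in the simulation, and its figures do not measure recovery or false calls in the data. Adult GFP+ and GFP- arrays share the numbers 6, 7 and 8, and same-numbered arrays deviated together (correlations 0.503, 0.443 and 0.188), so they were treated as paired in an alternative fit. Alternatives were quantile normalization, median centring, other filters on dim probe sets, array weights, an intensity trend, the mean of a gene's probe sets, arrays left out and a block for replicate numbers. Promoters come from a RefSeq table that is not complete.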

Additional observations from a re-analysis of the deposited data

Results flagged for a closer look

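The difference between GFP+ and GFP- cells itself differed between adults and perinates for 3 of the 6 genes, by limma's test of that difference. For Bcl11a the adult log2 difference was -0.63 and the perinate one -2.12, a difference of 1.49. For Pdpn they were -0.58 and -1.61 (1.03, a call lost with no filter on dim probe sets, adjusted p = 0.0509), and for Itgb4 0.16 and -0.83 (0.99). Pdpn also lost its call on leaving out any 1 of 8 arrays (limma, adjusted p = 0.0531 to 0.167). Itgb4 lost its call on leaving out any 1 of 5 (limma, adjusted p = 0.0564 to 0.089), and Bcl11a kept its call whichever array was left out. In each of the 3 genes the perinate GFP- cells had the highest mean of the 6 groups. The sum of cortical markers was 6921 to 8446 in adult GFP- cells, beside 15215 to 15264 in those of perinates. In adults it was higher in WT GFP+ cells, 9486 to 10174, the direction opposite to Bcl11a and Pdpn. The part of these markers was not tested.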

How the results depend on the processing

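For the 54 pairs of gene and comparison, 1269 of 1359 values under the alternatives kept their side of the threshold, 75 lost a call and 15 gained one. No called difference changed sign (0), but 27 values that passed in neither fit did, in 11 of the pairs, such as Itgb4 and Cxcl14 by sort in adults (0.16 and -0.24, beside -0.01 and 0.07 without 1 array). Some alternatives could not move a difference, only its p-value: other filters, the intensity trend, and leaving out an array outside the comparison. The same is true of the mean of a gene's probe sets, since each of the 6 genes has 1. The share kept and the lack of sign changes follow in part from this. Of the 6 genes, 3 were called higher in perinate KO than WT cells, but 0 after quantile normalization (Trp63, Itgb4 and Bcl11a, adjusted p = 0.0738, 0.0564 and 0.19) and 0 without perinate KO arrays 2 and 3, which leaves 1 array in that group. In adult KO cells 1 was called, but 2 with arrays centred on their median (Trp63 added, adjusted p = 0.0335) and 2 with array weights. The KO difference between ages had 0 calls, and 1 with array weights. The age difference had 4 calls in KO cells, and 2 without perinate KO arrays 2 and 3. In WT GFP+ cells it had 2, and 4 with the replicate block (numbers 6 and 7, whose deviations correlated at 0.033 and 0.189, so that the samples share only a number); the same arrays with no block, a fit added after seeing the data, gave 2. The block left the count in KO cells at 4 (correlations 0.0486, 0.039 and 0.0589) and, for the paired adult sorts, at 3, and changed no call of either. Leaving out 1 array at a time gave 1 to 4 calls for the sort difference between ages, 0 to 1 and 0 to 3 for KO against WT in adults and perinates, and 1 to 4 for age in WT GFP+ cells; the cause was not tested. Pdpn lost its call by sort in adults with no filter on dim probe sets (0.0514) and with array weights (0.0691), and Itga6 its call by age in GFP- cells (0.0556 and 0.0882). Pdpn also lost its call for the sort difference between ages with no filter (1.03, adjusted p = 0.0509).

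Over all genes, KO against WT in perinates had 3664 calls, 2128 with a filter at the 60th percentile, 2399 without perinate KO array 2 and 1171 without arrays 2 and 3, and age in KO cells had 3604, and 1876 without them. The KO difference between ages had 167, 46 without perinate KO arrays 2 and 3, 52 to 101 without adult WT GFP+ array 6, 7 or 8, any adult KO array, perinate WT GFP+ array 5 or perinate KO array 2 or 3, 86 at the 60th percentile and 809 with array weights. Age in WT GFP+ cells had 3067, and 1139 in the smaller fit with no block. Median centring shifted the median of all genes to 0.134 and 0.154 for KO against WT in adults and perinates, where calls split into 2369 higher and 1328 lower, beside 1254 and 1497 (adults), and 3387 and 1578, beside 1862 and 1802 (perinates). Quantile normalization split the age calls in WT GFP+ cells into 1794 and 1798, beside 1888 and 1179. Of list genes called, 0 changed sign under either scaling, a comparison chosen after seeing the data. Cxcl14 was too dim for small differences.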
